A study of Mus musculus with 8 samples.

Results

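The genes of the small RNA pathway described here, *Drosha*, *Dgcr8*, *Xpo5*, *Dicer1*, *Tarbp2*, *Ago1*, *Ago2*, *Ago3*, *Ago4* and *Tnrc6b*, were followed through the RNA-sequencing libraries of mouse primary motor cortex (M1). They were chosen by name, from the microprocessor to the RNA-induced silencing complex (RISC). All 10 had a row in the count file, of 38031 genes in all, and each gene was represented by its transcript with the lowest Ensembl number. The question put to them was whether their RNA levels differed between M1 treated with *Fezf2 shRNA* and M1 treated with *non-silencing shRNA*.

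Each of the 8 libraries was made from total RNA of M1 of a male Swiss Webster mouse. Lentivirus was injected into M1 between P21 and P25, and the tissue was collected between P49 and P53. Of these, 4 mice received a *Fezf2 shRNA*, which targets the transcription factor *Fezf2* of deep-layer cortical projection neurons, and 4 received a *non-silencing shRNA*. Both constructs expressed mCherry and the shRNA from a rat *Synapsin I* promoter, which is active in neurons, with the shRNA placed in mir-30 flanking sequence. No library came from tissue without an shRNA construct, so a difference between shRNA-treated and untreated M1 cannot be read from these data. The pieces were bulk tissue, cut under mCherry fluorescence with all cortical layers and the meninges, so neurons that took up no virus and glia were included, and fewer cells of a type cannot be told apart from less RNA per cell.

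In the canonical pathway a primary microRNA transcript is cut in the nucleus by the microprocessor, the RNase III enzyme DROSHA with its RNA-binding partner DGCR8. The hairpin precursor leaves the nucleus with the export receptor XPO5, and DICER1, assisted by the double-stranded RNA-binding protein encoded by *Tarbp2*, removes the loop. One strand is then held by an Argonaute protein, which pairs it with target RNAs, and a GW182 protein such as TNRC6B links the Argonaute to the deadenylases that shorten the target's tail. AGO2 is the Argonaute known to slice a fully paired target. An shRNA in mir-30 flanks enters the same route at the microprocessor step, so in both groups these genes encode the proteins that make and use the shRNA itself.

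The designed sense sequence of the *Fezf2 shRNA* is shown because only the *Fezf2 shRNA* group carried a hairpin with this sequence. Capitals mark the 7 bases that would face bases 2 to 8 of the guide strand, if the guide starts opposite the last base.

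Fezf2 shRNA sense strand: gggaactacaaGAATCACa

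Its longest match to a spliced transcript of the 10 genes, on either strand, was 12 of 19 bases, in *Tnrc6b*. The 7-base site GAATCAC was found in 2 of the 10 transcripts, once in *Dicer1* and once in *Ago2*, on the sense strand. The same letters were present in 12.9% of the 9948 tested genes with a transcript sequence, whose median transcript length was 3071.5 bases. The *Dicer1* and *Ago2* transcripts are longer than that, 9851 and 13800 bases, and longer sequences hold any 7 letters more often.

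The count file has rows for 4 of the hairpins that these proteins act on which lie inside the annotated intervals of the 10 genes themselves. Their mature microRNAs, from RefSeq on build GRCm38.p6, are shown because those rows are described with their host genes. Capitals mark the seed, bases 2 to 8, and no seed is shared between them. The first 4 come from *Dgcr8* on chromosome 16, the next from *Tnrc6b* on chromosome 15 and the last 2 from *Xpo5* on chromosome 17.

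mmu-miR-3618-5p: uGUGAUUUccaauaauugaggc
mmu-miR-3618-3p: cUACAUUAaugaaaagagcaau
mmu-miR-1306-5p: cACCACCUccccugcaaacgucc
mmu-miR-1306-3p: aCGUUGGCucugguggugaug
mmu-miR-5113: aCAGAGGAggagagagauccugu
mmu-miR-693-5p: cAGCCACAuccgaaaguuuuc
mmu-miR-693-3p: gCAGCUUUcagauguggcuguaa

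One further sequence bears on how well the family members can be told apart. *Ago1*, *Ago3* and *Ago4* lie next to each other on chromosome 4, and exon 12 of *Ago1* (chr4:126448778-126448947, minus strand, build GRCm38) and exon 12 of *Ago3* (chr4:126363657-126363826, minus strand) share 170 coding bases without a difference.

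Ago1 and Ago3, exon 12: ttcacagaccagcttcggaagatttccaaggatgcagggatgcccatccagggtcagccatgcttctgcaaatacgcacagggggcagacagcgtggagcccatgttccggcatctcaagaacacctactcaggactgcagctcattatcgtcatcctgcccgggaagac

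A read that falls wholly inside this run has no bases that assign it to *Ago1* or to *Ago3*. The longest shared run was 53 bases between *Ago1* and *Ago2*, 38 bases between *Ago4* and either *Ago1* or *Ago3*, and 17 bases for the other two pairs. How reads with several alignments were counted is not given in the sources used here, so the exon 12 part of the *Ago1* and *Ago3* counts is uncertain.

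The deposited values are raw counts of alignments between the first and the last base of a transcript in the genome, so introns add to them, and they were scaled to normalized counts by TMM factors. Each library held between 54684016 and 58003814 counts when each gene was counted once. The counts of 9 of the 10 genes passed the filter of more than 8 CPM (counts scaled to a common library total) in at least 4 libraries, and *Ago4* did so in 6 libraries only. *Tarbp2* reached 3.53 to 7.61 CPM, passed in no library, and was tested in a fit without the filter. The counted intervals ran from 5218 bp in *Tarbp2* to 229773 bp in *Tnrc6b*, and annotated exons covered 5.33% of the *Drosha* interval and 82.1% of the *Tarbp2* interval.

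None of the 9 tested genes passed the threshold of edgeR's quasi-likelihood test (adjusted p ≤ 0.05 and a log2 fold change of at least 0.2 in either direction), against 2.09% of all 9959 genes tested. At an unadjusted p under 0.05 the count was also 0 of 9, against 19.6% of all genes, and DESeq2 called 0 of 9, against 7.55%. The smallest adjusted p among the 9 was 0.277, in *Tnrc6b*. The groups overlapped for all 10 genes, while 11.8% of the genes tested had groups that did not overlap. Their log2 fold changes were above 0 in 7 and below 0 in 2, with a median of 0.11, and 43.4% of all genes tested were above 0, with a median of -0.03.

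*Fezf2* itself (chr14:12342102-12345959) gave the check on the labels. It stood at 688, 767, 735 and 702 normalized counts in *non-silencing shRNA* replicates 1 to 4 and at 621, 583, 568 and 592 in *Fezf2 shRNA* replicates 1 to 4. Every *Fezf2 shRNA* library was below every *non-silencing shRNA* library. The log2 fold change was -0.29 ± 0.0781 (SE), with an adjusted p of 0.0824 in edgeR and 0.0256 in DESeq2, and with an offset for gene length it was -0.18 (adjusted p = 0.446).

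**Figure D1:**
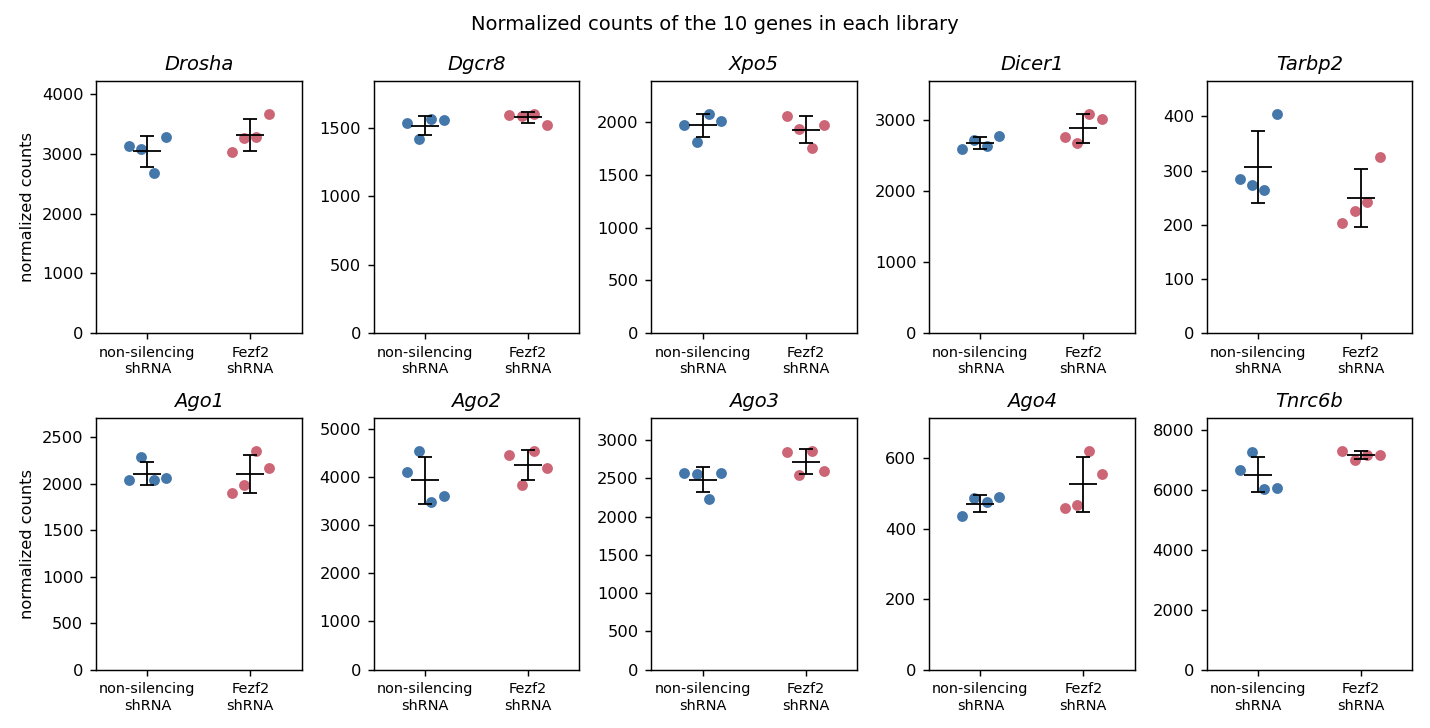
Normalized counts (y axis, from 0, scaled for each gene) of the 10 genes in the 4 *non-silencing shRNA* libraries (blue) and the 4 *Fezf2 shRNA* libraries (red), replicates 1 to 4 from left to right; the bar and whiskers are the mean ± SD. The groups overlap in every panel, and *Tarbp2* shows the widest spread, with *non-silencing shRNA* replicate 4 at 405.

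The microprocessor enzyme gene *Drosha* (chr15:12824863-12935291, 35 exons) had 3128, 3078, 2679 and 3286 normalized counts in the *non-silencing shRNA* libraries and 3039, 3276, 3281 and 3672 in the *Fezf2 shRNA* libraries. The highest value was *Fezf2 shRNA* replicate 4 and the lowest *non-silencing shRNA* replicate 3, and the remaining 6 libraries were interleaved. The means were 3043 ± 258 and 3317 ± 263 (SD, n = 4), and the log2 fold change was 0.12 ± 0.0795 (SE, adjusted p = 0.397). It ran from 0.072 without *Fezf2 shRNA* replicate 4 to 0.17 without *non-silencing shRNA* replicate 4, and was 0.077 without *non-silencing shRNA* replicate 3.

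Its partner gene *Dgcr8* (chr16:18253948-18289246, 14 exons) had 1531, 1415, 1562 and 1552 normalized counts with *non-silencing shRNA* and 1591, 1588, 1600.3 and 1517 with *Fezf2 shRNA*. *Dgcr8* was among the least variable of the 10 genes, and its *Fezf2 shRNA* replicate 4 lay inside the range of the *non-silencing shRNA* libraries. The log2 fold change was 0.06 ± 0.0587 (SE, adjusted p = 0.626), and the 95% confidence interval of the fold change ran from 0.950 to 1.14. Without *non-silencing shRNA* replicate 2 the log2 value was 0.023. Compared within each library per kb of interval, the log2 ratio of *Dgcr8* to *Drosha* was 0.64 ± 0.15 with *non-silencing shRNA* and 0.57 ± 0.14 with *Fezf2 shRNA* (SD, n = 4; exact two-sided permutation p = 0.514). The smallest p that 4 against 4 libraries can give in this test is 0.0286.

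The *Dgcr8* messenger carries hairpins that the microprocessor is known to cut, a route by which the complex limits its own RNA-binding subunit. Both lie in exon 2 of 14, the miR-3618 hairpin (chr16:18284550-18284637) outside the coding sequence and the miR-1306 hairpin (chr16:18284239-18284317) inside it. Their rows count the pieces of longer RNA that cross 88 and 79 bases, and mature microRNAs were not measured here.

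The miR-3618 window held 33, 36, 41 and 40 raw reads with *non-silencing shRNA* and 26, 19, 23 and 32 with *Fezf2 shRNA*. After normalization the highest *Fezf2 shRNA* library, at 32.7, was level with the lowest *non-silencing shRNA* library, at 32.5, so the groups met. A log2 fold change of -0.55 ± 0.288 was fitted (SE, adjusted p = 0.505 in the fit without a filter). The miR-1306 window held 63, 64, 54 and 90 reads against 64, 58, 92 and 75, which overlapped widely (log2 fold change 0.13 ± 0.242, adjusted p = 0.869). With fewer than 100 reads a window, the standard errors were far larger than that of the whole *Dgcr8* interval.

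The export receptor gene *Xpo5* (chr17:46202782-46243598, 32 exons) had 1971, 1817, 2079 and 2011 normalized counts with *non-silencing shRNA* and 2057, 1937, 1754 and 1975 with *Fezf2 shRNA*. The second highest and the lowest value of all 8 libraries were both in the *Fezf2 shRNA* group. For *Xpo5* the log2 fold change was -0.03 ± 0.0709 (SE, adjusted p = 0.843), with a 95% interval of the fold change from 0.879 to 1.09.

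*Xpo5* also showed what the counts contain. Intron 20 of *Xpo5* holds the miR-693 hairpin on its own strand and the small nuclear RNA gene *Gm22474* on the other strand, 1105 bp apart. The miR-693 window was given 59, 55, 64, 72, 85, 55, 53 and 58 reads, in the order of *non-silencing shRNA* and then *Fezf2 shRNA* replicates 1 to 4. The *Gm22474* window was given 59, 55, 62, 72, 85, 52, 53 and 59. The rows were equal in 5 of 8 libraries and never differed by more than 3 reads, although the windows share no base and lie on opposite strands. Alignments that span an intron, if counted by their outer ends without regard to strand, add equally to both windows, so neither row is read here as a measure of its small RNA. The log2 fold changes of both windows were 0.04 (adjusted p = 0.965).

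The RNase III gene *Dicer1* (chr12:104687742-104751952, 27 exons) had 2583, 2707, 2633 and 2768 normalized counts with *non-silencing shRNA* and 2748, 2666, 3079 and 3006 with *Fezf2 shRNA*. *Fezf2 shRNA* replicates 3 and 4 were above all *non-silencing shRNA* libraries, and the other two were within their range. The means were 2673 ± 81.4 and 2875 ± 199 (SD, n = 4), and the log2 fold change was 0.11 ± 0.0643 (SE, adjusted p = 0.373).

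*Tarbp2* (chr15:102518459-102523676, 9 exons), the DICER1 partner, was the lowest counted gene of the 10 and the only one with a point estimate below -0.2. Its normalized counts were 284, 273, 264 and 405 with *non-silencing shRNA* and 203, 226, 242 and 325 with *Fezf2 shRNA*. In 3 *Fezf2 shRNA* libraries *Tarbp2* was below every *non-silencing shRNA* library, and in *Fezf2 shRNA* replicate 4 it was above 3 of them. Replicate 4 was the highest of its group in both groups.

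The log2 fold change of *Tarbp2* was -0.29 ± 0.173 (SE, adjusted p = 0.555), with a 95% interval from -0.66 to 0.08. Fitted with a filter of more than 4 CPM it was -0.30 (adjusted p = 0.403), and without *non-silencing shRNA* replicate 4 it was -0.13 (adjusted p = 0.726). Without *Fezf2 shRNA* replicate 4 it was -0.45 (adjusted p = 0.276), so the size of the estimate moved in either direction with the replicate 4 library of each group. *Non-silencing shRNA* replicate 4 also had the highest summed level of 3 oligodendrocyte markers (*Mbp*, *Mog* and *Mag*). Their sum ranged from 27769 to 56019 normalized counts with *non-silencing shRNA* and from 24579.9 to 40276 with *Fezf2 shRNA*. The summed markers of oligodendrocyte precursors (2346) and of endothelial cells (1374) were likewise highest in that library. *Non-silencing shRNA* replicate 1, second to it in *Tarbp2* within the group, had the lowest oligodendrocyte sum of the group, 27769. All 3 oligodendrocyte markers had log2 fold changes below 0 (-0.58 to -0.31), none passed the threshold and none was at 0. The part of any cell type in the *Tarbp2* values was not tested. The summed markers of excitatory neurons, inhibitory neurons, oligodendrocyte precursors, astrocytes, microglia and endothelial cells overlapped between the groups, no marker of any list was at 0, and none of those tested passed the threshold.

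Within a library, the log2 ratio of *Tarbp2* to *Dicer1* per kb of interval was 0.44, 0.31, 0.30 and 0.85 with *non-silencing shRNA* and -0.14, 0.06, -0.05 and 0.41 with *Fezf2 shRNA*. The highest *Fezf2 shRNA* library was above 2 of the *non-silencing shRNA* libraries. The difference of the means was -0.40 (exact two-sided permutation p = 0.0857). The ratio sets an interval of 5218 bp against one of 64211 bp and has no offset for gene length. With that offset the log2 fold changes were -0.19 for *Tarbp2* and 0.06 for *Dicer1*. Without *Fezf2 shRNA* replicate 4, the only library of its group inside the *non-silencing shRNA* range, the difference was -0.52. Leaving that library out made the groups separate, and the exact p of 0.0286 is the smallest the test can then give. It was 1 of the 7 shares and ratios, each also compared with each library left out in turn.

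**Figure D2:**
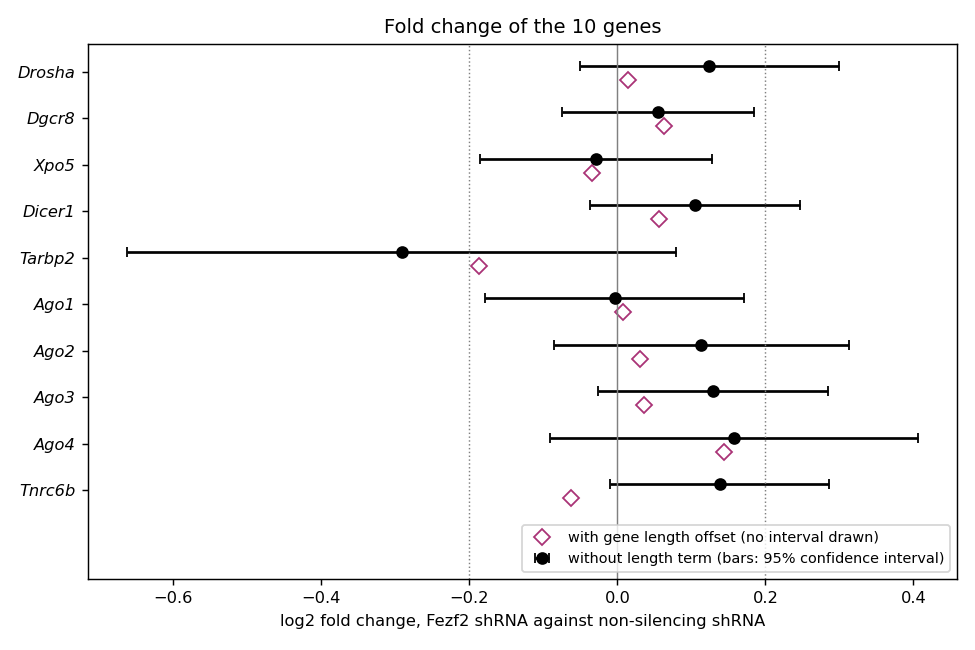
Log2 fold change of the 10 genes (x axis), *Fezf2 shRNA* against *non-silencing shRNA*, with 95% confidence intervals (black) and after an offset for gene length (open diamonds); dotted lines mark a log2 fold change of 0.2 in either direction. All 10 intervals include 0, and *Tnrc6b* moves from 0.14 to -0.06 with the offset.

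No change was detected in any of the 4 Argonaute genes. *Ago1* (chr4:126435012-126468583, 19 exons) had 2044, 2289.6, 2037 and 2065 normalized counts with *non-silencing shRNA* and 1903, 1981, 2356 and 2173 with *Fezf2 shRNA*. Both the lowest and the highest library were in the *Fezf2 shRNA* group, around almost the same mean (2109 ± 121 and 2103 ± 203, SD, n = 4). On the log2 scale the difference was -0.0038 ± 0.0794 (SE, adjusted p = 0.987).

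*Ago2* (chr15:73095844-73184935, 19 exons), the slicing Argonaute, had 4089.8, 4542, 3485 and 3592 normalized counts with *non-silencing shRNA* and 4447, 3838, 4531 and 4172 with *Fezf2 shRNA*. The *non-silencing shRNA* libraries split into 2 higher and 2 lower values, and the *Fezf2 shRNA* values fell between their extremes. *Ago2* differed by 0.11 ± 0.0903 on the log2 scale (SE, adjusted p = 0.499), and by 0.19 without *non-silencing shRNA* replicate 2, 0.069 without replicate 3 and 0.075 without replicate 4 of that group.

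*Ago3* (chr4:126332732-126429556, 19 exons) had 2574, 2551, 2235 and 2567 normalized counts with *non-silencing shRNA* and 2845, 2548, 2862 and 2602 with *Fezf2 shRNA*. In 3 *Fezf2 shRNA* libraries *Ago3* was above all *non-silencing shRNA* libraries, and *Fezf2 shRNA* replicate 2 lay just below 3 of them. Its log2 fold change was 0.13 ± 0.0701 (SE, adjusted p = 0.319).

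*Ago4* (chr4:126489541-126533472, 18 exons) had 436, 486, 475 and 490.2 normalized counts with *non-silencing shRNA* and 459, 468, 622 and 556 with *Fezf2 shRNA*. *Fezf2 shRNA* replicates 3 and 4 were the highest of all, and the other two were inside the *non-silencing shRNA* range. Its log2 fold change was 0.16 ± 0.113 (SE, adjusted p = 0.446), the largest point estimate above 0 among the 9 tested genes, and its 95% interval of the fold change ran from 0.939 to 1.33. Without *Fezf2 shRNA* replicate 3 the value for *Ago4* was 0.077, below those of *Tnrc6b* (0.15), *Drosha* (0.14) and *Ago3* (0.11) in the same fit.

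The make-up of the family was compared within each library as the share of each gene in the summed *Ago1* to *Ago4* reads per kb of interval. *Ago1* held 42.5, 43.6, 45.4 and 44.1% with *non-silencing shRNA* and 38.7, 42.4, 42.6 and 42.8% with *Fezf2 shRNA*. All *Fezf2 shRNA* libraries but replicate 1 lay close to the lowest *non-silencing shRNA* library, and replicate 1 lay below all others. The means were 43.9 ± 1.21% and 41.6 ± 1.96% (SD, n = 4; exact two-sided permutation p = 0.0857). *Ago2* held 30.7 ± 1.87% and 31.7 ± 1.57%, *Ago3* 17.9 ± 1.03% and 18.7 ± 1.05%, and *Ago4* 7.52 ± 0.61% and 7.94 ± 0.667%. The exact p for these 3 shares ran from 0.343 to 0.371, and with all 8 libraries none of the 7 shares and ratios compared reached 0.05.

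**Figure D3:**
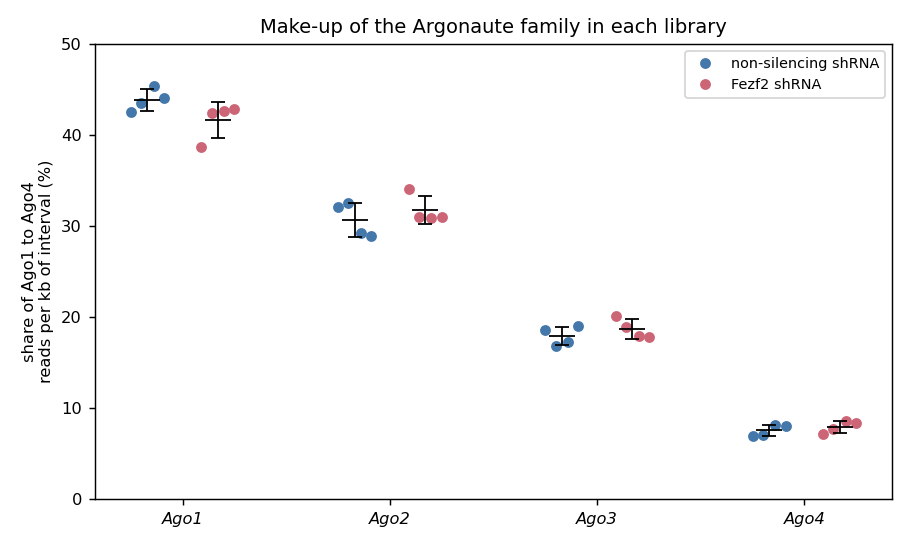
Share of each Argonaute gene in the summed reads per kb of counted interval of *Ago1* to *Ago4* (y axis, percent, from 0) in the *non-silencing shRNA* (blue) and *Fezf2 shRNA* (red) libraries, with the mean ± SD. The order *Ago1*, *Ago2*, *Ago3*, *Ago4* is the same in all 8 libraries, and the groups overlap for every gene.

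*Tnrc6b* (chr15:80711313-80941085, 25 exons), the GW182 gene of the set, had 6665, 7258, 6016 and 6058 normalized counts with *non-silencing shRNA* and 7301, 6983, 7157 and 7171 with *Fezf2 shRNA*. The 4 *Fezf2 shRNA* libraries were tightly grouped, and *non-silencing shRNA* replicate 2 stood among them while replicates 3 and 4 were lower. The means were 6499 ± 586 and 7153 ± 131 (SD, n = 4), and the log2 fold change was 0.14 ± 0.0669 (SE, adjusted p = 0.277).

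The other two GW182 genes had similar estimates, 0.12 ± 0.0777 for *Tnrc6a* (adjusted p = 0.422) and 0.13 ± 0.0775 for *Tnrc6c* (adjusted p = 0.353; edgeR). *Tnrc6b* held 23.4 ± 1.52% of the summed reads per kb of the 3 genes with *non-silencing shRNA* and 23.6 ± 1.02% with *Fezf2 shRNA* (SD, n = 4; exact two-sided permutation p = 0.886). The miR-5113 hairpin lies in the last exon of *Tnrc6b* outside the coding sequence (chr15:80940039-80940120), and its window held 78, 72, 72 and 58 reads against 49, 62, 87 and 52, which overlapped.

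Levels can be compared between the genes only per length, and the order depended on which length was used. Per kb of counted interval, *Ago1* was highest at 62.7 ± 4.61 normalized counts per kb (SD, n = 8), followed by *Tarbp2* at 53.2 ± 12.2, *Xpo5* at 47.8 ± 2.77, *Ago2* at 45.9 ± 4.67, *Dgcr8* at 43.8 ± 1.70 and *Dicer1* at 43.2 ± 2.76. After these came *Tnrc6b* at 29.7 ± 2.29, *Drosha* at 28.8 ± 2.55, *Ago3* at 26.8 ± 2.03 and *Ago4* at 11.4 ± 1.38. The ranges of neighbours over the 8 libraries overlapped except between *Dicer1* and *Tnrc6b* and between *Ago3* and *Ago4*.

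Per kb of spliced transcript, *Drosha* was highest at 704 ± 62.4 normalized counts per kb and separate from *Tnrc6b* at 394 ± 30.3, while *Ago4* was again lowest at 76.3 ± 9.27 and separate from *Ago3* at 167 ± 12.6. *Ago2* at 296 ± 30.1 and *Ago1* at 291 ± 21.4 overlapped on this scale, so *Ago1* led the family only per kb of interval. *Drosha* thus moved from the eighth place to the first, and annotated exons make up the smallest share of its interval among the 10 genes. On both scales *Ago4* was the lowest in every library.

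Libraries of a group varied more than the counting error of independent reads, except for *Dgcr8* with *Fezf2 shRNA*, where the coefficient of variation was 2.45% and the counting error 2.54%. Both mates of a pair can add to a count, so the true counting error can be larger, and the excess was not tested. The coefficient of variation within a group ran from 1.83% (*Tnrc6b*, *Fezf2 shRNA*) to 21.6% (*Tarbp2*, *non-silencing shRNA*), while the counting error at the mean count, taking reads as independent, was 1.21% for *Tnrc6b* and higher for the others, up to 5.998% for *Tarbp2*. In 5 of the 10 genes, *Dgcr8*, *Dicer1*, *Ago1*, *Ago3* and *Ago4*, the highest value was in *Fezf2 shRNA* replicate 3.

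Because introns were counted, each fold change was read beside the fold changes of genes of like span. The median log2 fold change of the genes tested was -0.12 for spans under 10 kb, -0.07 for 10 to 30 kb, 0.01 for 30 to 100 kb, 0.15 for 100 to 300 kb and 0.29 for longer genes. The class of 30 to 100 kb held 7 of the 10 genes, with values from -0.03 (*Xpo5*) to 0.16 (*Ago4*), and the 25th and 75th percentiles of that class were -0.06 and 0.10. *Drosha* at 0.12 and *Tnrc6b* at 0.14 were just under the median of their class of 100 to 300 kb. *Tarbp2*, at -0.29, was below the 25th percentile of its class, -0.18.

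With an offset fitted for gene length in each library, the values of the 9 tested genes ran from -0.06 (*Tnrc6b*) to 0.14 (*Ago4*), with a median of 0.03, and none passed the threshold (0.0201% of all genes did). The estimate for *Drosha* went from 0.12 to 0.01, for *Ago2* from 0.11 to 0.03 and for *Ago3* from 0.13 to 0.04. *Dgcr8* (0.06), *Xpo5* (-0.03), *Ago1* (0.01) and *Ago4* (0.14) stayed near their values without it, and *Dicer1* went from 0.11 to 0.06. *Tarbp2*, fitted with the lower filter, stood at -0.19. *Tnrc6b* changed its sign, to -0.06.

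**Figure D4:**
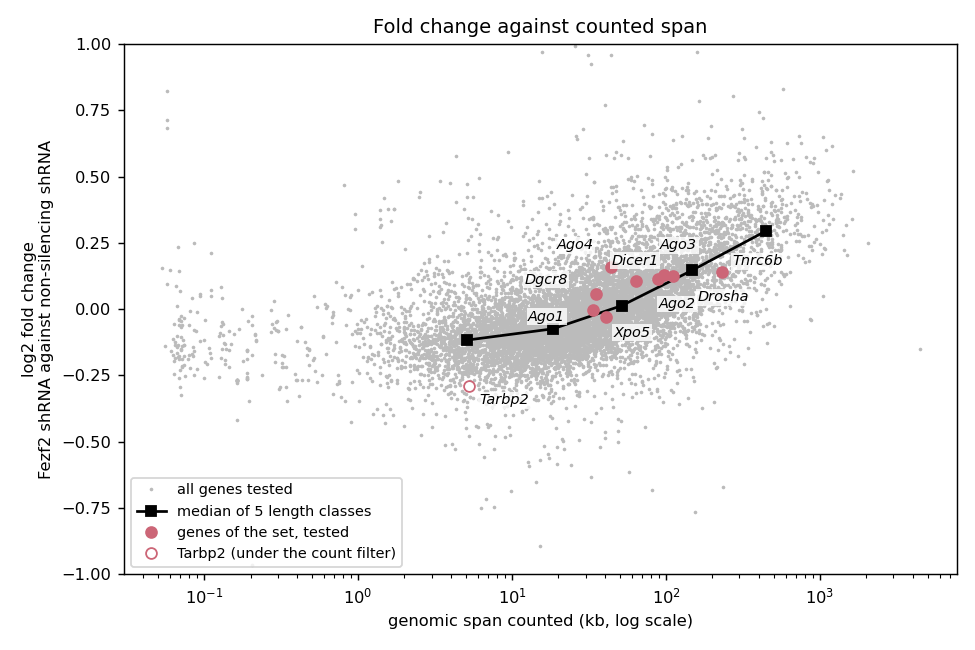
Log2 fold change (y axis, shown from -1 to 1, which leaves out 18 genes) against the counted genomic span in kb (x axis, log scale) for all 9959 genes tested (grey), the medians of 5 length classes (black squares) and the 10 genes (red; *Tarbp2* open). *Drosha* and *Tnrc6b* lie just below the black line, *Ago4* lies highest above it for its span, and *Tarbp2*, fitted without the filter, lies below it.

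Shorter annotated transcripts of 5 of the genes allowed parts of an interval to be read separately. In *Ago3*, an interval that is 3.66% exonic (chr4:126375678-126404294) had 240.0, 306, 303 and 298 normalized counts with *non-silencing shRNA* and 356, 361, 409 and 312 with *Fezf2 shRNA*. All *Fezf2 shRNA* libraries were above all *non-silencing shRNA* libraries, yet the difference did not pass the threshold (log2 fold change 0.33 ± 0.123, adjusted p = 0.0986, edgeR). It was the only shorter interval tested in these genes without overlap, and how often intronic parts of all genes lack overlap was not counted. In the edgeR fit of every shorter interval, which gave the values of the other *Ago3* intervals, its adjusted p was 0.198. Among all intronic parts tested, whose median log2 fold change was 0.16, 15.4% passed. That count fell from 415 of 2688 to 39, 238 and 92 without *non-silencing shRNA* replicates 1, 3 and 4. It fell to 165, 127 and 170 without *Fezf2 shRNA* replicates 1, 3 and 4. It rose to 497 without *non-silencing shRNA* replicate 2 and to 425 without *Fezf2 shRNA* replicate 2. The least exonic *Ago3* interval, at 2.81%, had a log2 fold change of 0.04 ± 0.118 (adjusted p = 0.887), and a 3′ interval that is 72.7% exonic, of which 1028 bp lie beyond the interval counted for the gene, had one of 0.07 ± 0.0963. The point estimates of the *Ago3* parts therefore did not follow their exon share, and differences between the parts were not tested. Alignments that span an intron may add to a part, as described for the *Xpo5* windows. Parts with few exonic bases can thus hold spliced reads.

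In *Drosha*, an interval of 66462 bp with 50.6% of the reads (chr15:12837350-12903811) had 1513, 1564, 1252 and 1622 normalized counts against 1509, 1748, 1729 and 1955. All but *Fezf2 shRNA* replicate 1 were above all *non-silencing shRNA* libraries (log2 fold change 0.22 ± 0.0995, adjusted p = 0.280). The other 3 shorter intervals of *Drosha* ran from -0.10 to -0.05, with SE from 0.0969 to 0.136. They are not separate parts. The interval chr15:12878708-12885230 lies inside that of 66462 bp, and chr15:12826127-12834539 lies inside chr15:12824890-12834621. Whether the parts of *Drosha* differ was not tested. The 7 shorter intervals of *Tarbp2*, which share most of their reads, ran from -0.37 to -0.30. Those of *Ago1* ran from 0.01 to 0.07, and its interval of 811 bp that is 83.6% exonic stood at 0.07 ± 0.183 (adjusted p = 0.827), where 1.31% of all exonic parts passed the threshold. In *Dgcr8*, a transcript annotated over 29596 bp had the same count in every library as the 35299 bp transcript used here, so the interval the authors counted may be shorter than the one printed, and its level per kb is uncertain. The miR-3618 window lies outside the interval of 29596 bp, so its reads may not be part of the *Dgcr8* count. Among all shorter intervals tested, 2.40% passed, and no part of the 10 genes did.

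**Figure D5:**
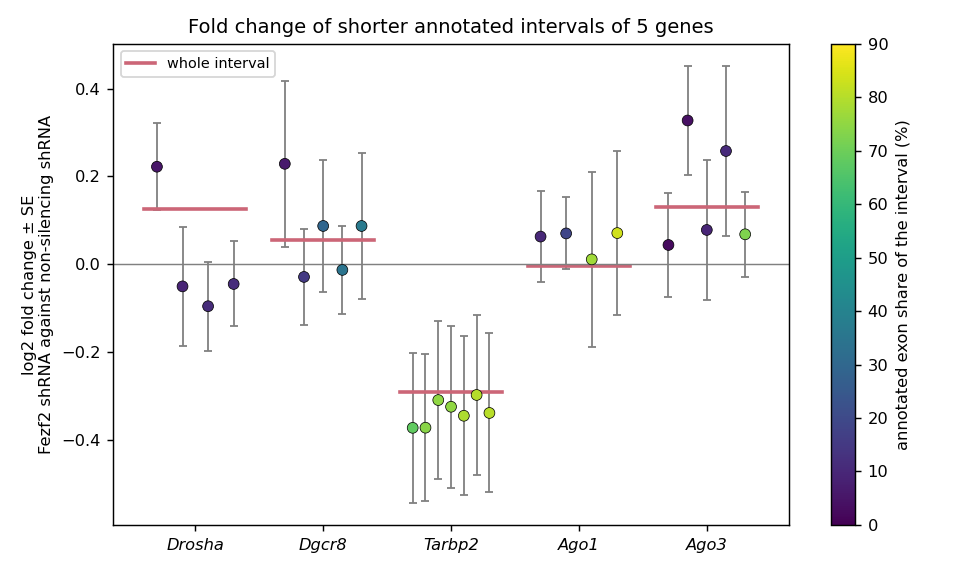
Log2 fold change ± SE (y axis) of shorter annotated intervals of 5 of the genes, ordered within a gene and coloured by the share of the interval that is annotated exon; red lines give the whole interval of the gene. Intervals of one gene overlap and share reads. The *Tarbp2* intervals lie between -0.37 and -0.30, and the *Ago3* interval at 0.33 is among the least exonic.

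Other genes overlap the annotated intervals, and the strand was not used in the *Xpo5* windows above. *Trmt2a*, a tRNA methyltransferase gene on the opposite strand, shares 825 bp with the 3′ end of *Dgcr8*, and *Chrac1* on the opposite strand shares 1711 bp with *Ago2*. *Trmt2a* had a log2 fold change of -0.28 ± 0.103 (adjusted p = 0.174) and *Chrac1* of -0.18 ± 0.176 (adjusted p = 0.692; edgeR), both opposite in sign to the estimate of the gene they overlap. Reads in the shared stretch cannot be told apart, and the stretch that *Dgcr8* shares with *Trmt2a* lies outside the shorter interval its counts may stand for. The protein-coding gene *Gm49776*, on the same strand, shares 4374 bp with *Dgcr8* and had no row in the count file. That overlap reaches into the shorter interval, and reads in it cannot be assigned to either gene by position or strand. The 2 processed pseudogenes inside *Ago4* averaged 13.9 and 11.1 reads.

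The wider pathway was read through 5 lists with 76 genes, of which 61 passed the filter. One gene rose and none fell past the threshold, 1 of 61 against 2.09% of all genes tested. The gene that rose was *Cnot2*, a scaffold subunit of the CCR4-NOT deadenylase that GW182 proteins recruit. Its normalized counts were 1209, 1303, 1331 and 1237 with *non-silencing shRNA* and 1792, 1599.9, 1681 and 1604 with *Fezf2 shRNA*, which did not overlap. The log2 fold change was 0.39 ± 0.0643 (SE, adjusted p = 0.0276). The call was lost with the length offset (0.34, adjusted p = 0.139) and with the widest transcript of *Cnot2* in place of the lowest numbered one (0.19, adjusted p = 0.0927). It was also lost when *non-silencing shRNA* replicate 1 or 4, or *Fezf2 shRNA* replicate 1, 3 or 4, was left out (adjusted p from 0.0608 to 0.0998), while its log2 fold change stayed between 0.36 and 0.41 in those fits.

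Among the 11 microprocessor partners tested, the double-stranded RNA-binding complex gene *Ilf2* had the smallest p (log2 fold change -0.18 ± 0.0747, adjusted p = 0.230), followed by the RNA helicase gene *Ddx5* (-0.13 ± 0.0677, adjusted p = 0.297). None of the 11 passed the threshold and their median was -0.09. Of the 16 tested export, dicing and loading partners none passed, with a median of -0.07, and the smallest p values were those of *Snd1*, which encodes a nuclease associated with RISC (0.14 ± 0.0533, adjusted p = 0.185), and of *Ran*, the GTPase that XPO5 needs (-0.20 ± 0.0839, adjusted p = 0.228).

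The 24 tested silencing effectors had a median of 0.06, and after *Cnot2* the smallest p was that of the deadenylase gene *Cnot6l* (0.18 ± 0.0626, adjusted p = 0.146). The 10 tested genes of tailing and turnover had a median of 0.05. None of them passed, and the smallest p values were those of the exonuclease gene *Dis3l2* (0.30 ± 0.0835, adjusted p = 0.0945) and the uridylyltransferase gene *Tut4* (0.22 ± 0.0636, adjusted p = 0.0999). With the length offset *Dis3l2*, which spans 346250 bp, went to 0.04 and *Snd1*, which spans 408485 bp, to -0.13. DESeq2 called *Cnot2*, *Dis3l2* and *Tut4*, all higher, which is 3 of the 61 pathway genes tested, against 7.55% of all genes tested. Of the 752 genes that DESeq2 called, 658 were higher.

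No gene of the PIWI pathway, the germline relative of the Argonaute pathway, passed the count filter. *Piwil1* had 1 to 10 raw reads a library and *Piwil4* 0 to 4, over 19301 and 38376 bp. *Piwil2* had 57 to 91, and *Tdrd9* was the highest counted of the 10 with 257 to 379 over 97296 bp. Per kb of interval *Piwil1* stood at 0.240 and *Piwil4* at 0.0329 normalized counts, below *Ago4*, the lowest of the Argonaute genes.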

How the data were processed

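M1 tissue of 8 mice was sequenced as paired-end total RNA, 4 libraries per group, grouped by the titles of the deposited record. The deposited values are raw counts per Ensembl transcript, which the authors made with tophat2 on mm10 and BEDTools multiCov over Ensembl intervals from the UCSC browser. Per the submitters' processing notes the versions were TopHat2 2.1.1 and bedtools 2.26.0. multiCov counts alignments over a whole interval, so introns and both mates can add to a count. A second deposited table of the authors' comparison (fold changes and p-values) was not used.

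Transcripts were matched to GENCODE M21 (91320 of 94647; the others held 1.82% of counts), and intervals printed are those of M21. No column was left unassigned. Counts were tested with edgeR 4.0.16 (quasi-likelihood, TMM, Benjamini-Hochberg over all genes tested, over 8 CPM in 4 or more libraries); 95% intervals came from the same fit. The biological coefficient of variation was 11.7%. The length offset was a loess fit (span 0.3) of each library's deviation on log2 span. Parts of genes (shorter annotated transcripts) used the gene-level library sizes, with at least 100 reads, at least 80% exonic or at most 5% exonic; a reading of every shorter transcript was added later. Shares and ratios used exact two-sided permutation tests. Alternatives included DESeq2 1.42.0, other scalings and filters, the widest transcript and leaving out each library. The tests were tested on simulated data.

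The genes, the lists and the tests were chosen with earlier results of these data known. Named beside the 10 genes were *Fezf2*, the other GW182 genes, overlapping genes, and in each list the genes past the threshold and the 2 smallest p-values. Separate animals are taken from the authors' description of the injected mice, while the titles give only the group and a replicate number. Counting error treats reads as independent. Depth was 54684016 to 58003814 counts per library. Some items of the lists are not reported here.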

Additional observations from a re-analysis of the deposited data

Results flagged for a closer look

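In 6 of the 36 groups of 4 libraries examined (10 genes, *Fezf2* and 7 shares or ratios in each treatment), 1 library stood apart from the other 3 by Dixon's criterion, which chance alone would meet in about 1 group of 20. Of these, 4 were normalized counts: *Ago1* at 2289.6 in *non-silencing shRNA* replicate 2, *Ago3* at 2235 in *non-silencing shRNA* replicate 3, *Tarbp2* at 405 in *non-silencing shRNA* replicate 4 and *Dgcr8* at 1517 in *Fezf2 shRNA* replicate 4. The other two were shares of the Argonaute family in *Fezf2 shRNA* replicate 1, where *Ago1* held 38.7% and *Ago2* 34.1%. These 2 shares come from the same library and sum with the others to the whole, so they are not separate events.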

How the results depend on the processing

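None of the 10 genes and none of their parts passed the threshold under any alternative tried; of the 7 shares and ratios, 0 to 1 reached 0.05 with 1 library left out. *Fezf2* passed with DESeq2 (-0.28). All genes past the threshold numbered 208, and 84 with more than 1 CPM, 103 without a filter, 752 with DESeq2, 90 with the replicate block, 2 with the length offset, with or without the block or the lower filter, and 0 to 368 with 1 library left out (0 without *non-silencing shRNA* replicate 1). Pathway genes past it numbered 1, and 3 with DESeq2, 2 with more than 4 CPM, 0 with the block, the length offset, both, the 4 CPM filter with that offset, or the widest transcript, and 0 to 2 with 1 library left out. Libraries of the same replicate number had correlations from -0.13 to 0.31. The same number was the best match for *non-silencing shRNA* replicates 1 and 4 and not for replicates 2 and 3. Whether replicate numbers mark pairs is therefore not settled.

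*Ago1*, near 0, changed sign: 0.0030 with DESeq2 and with its size factors, 0.0057 without the 10 most counted genes, 0.0043 without a filter, 0.0080 with the length offset, 0.0060 with offset and block, 0.00021 at 4 CPM, 0.0031 with that filter and offset, and -0.053 to 0.042 with 1 library left out. With the offset, the offset and block, and the 4 CPM offset, *Tnrc6b* reversed to -0.063, -0.061 and -0.065 and *Snd1* to -0.13. With 1 library left out, *Xpo5* ran from -0.066 to 0.023 (positive without replicate 3 of either group), the exonic *Ago1* part from -0.056 to 0.19, the *Tnrc6b* share difference from -0.513 to 0.566 percentage points and the *Dgcr8* to *Drosha* difference from -0.12 to 0.0055.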
